A study of Mus musculus with 6 samples.

Results

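The genes described here are 10 inflammatory targets of the transcription factor NF-kB other than chemokines: the feedback inhibitors Nfkbia and Tnfaip3, the cytokine gene Il6, the cytokine receptor gene Il1rl1, the adhesion molecules Vcam1 and Icam1, the secreted defence proteins Lcn2, Saa3 and C3, and the prostaglandin enzyme Ptgs2. They were chosen by name, with earlier results of these data known, and each was read from the probe sets annotated to that symbol alone. Probe sets so annotated were found for 8 of the 10 genes, 16 probe sets in all, out of 18193 genes on the array; Il1rl1 and C3 were not analysed here. RNA came from mouse embryonic fibroblasts (MEFs) that had become immortal in culture spontaneously, and the 6 samples were 3 clones lacking FHL2 (FHL2-/-, called knockout; E, H and J) next to 3 of wild type (E, F and I). Each sample is 1 clonal line hybridised to 1 array; the labels name no stimulus, no embryonic age and no strain, and are silent on whether the clones derive from different embryos, so that p-values here rest on clone-to-clone spread alone. FHL2 is an adaptor protein built of LIM domains that binds transcription factors and integrin tails.

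NF-kB dimers are held in the cytoplasm of resting cells by IkB proteins. Receptors for tumour necrosis factor, interleukin-1 and microbial products activate the IkB kinase, IkB is degraded, and the freed dimers enter the nucleus and induce cytokines, adhesion molecules, acute-phase proteins and, as a brake, the genes of their own inhibitors. Fibroblasts are known as a source of interleukin-6 and prostaglandin E2 in inflamed tissue.

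Values are log2 intensities, and differences are knockout minus wild type on that scale with the standard error (SE) of a limma fit over all genes, n = 3 clones per genotype. A gene is said to rise, fall or pass where the adjusted p (Benjamini-Hochberg over all 18193 genes) lay under 0.05. Fhl2 itself read 6.01 to 6.57 in knockout clones, against 8.57 to 9.88 in wild type clones (limma adjusted p = 0.00400); where its probe set lies relative to the deleted part was not analysed here. Of the knockout clones, H differed most from its group: across genes its correlation was 0.964 with knockout clone E and 0.968 with knockout clone J, which correlated at 0.991 with each other. Clone H also read 9.82 for Xist, against 4.69 to 5.11 in the other 5 clones, and 2.92 for the Y-linked gene Eif2s3y, against 7.47 to 8.79 in the others. By these markers of sex clone H differed from all other clones, and the part of this in the results that turn on clone H was not tested. Values without clone H are given where leaving it out changes a call among the 8 measured genes or the pathway lists below, and for some other genes. Of 8 fibroblast markers, Lum and Pdgfra rose and Thy1 and Pdgfrb fell. Col1a1, Col1a2, Col3a1 and Vim read 12.74 or more in every clone, whereas Lum read 10.33 to 11.94 in the knockout, against 4.63 to 8.58 in the wild type (list mean 12.06 to 12.17 in the knockout, against 11.09 to 11.86 in the wild type). Of 8 macrophage markers 0 passed (limma; 2 at an unadjusted p under 0.05, Fcgr1 with a difference of 0.33 and Lyz2 with 1.14), with a list mean of 4.21 to 4.44 in knockout clones, against 4.05 to 4.07 in wild type clones. Of 5 endothelial markers 1 passed, the receptor Tek (difference 4.27; next Tie1 at -0.17), and the list mean was 4.29 to 4.92 in knockout clones, against 3.49 to 3.99 in wild type clones. Of 5 epithelial markers 1 passed, Epcam (difference 0.43; next Krt18 at -1.01), with list means of 4.26 to 4.39 in the knockout and 4.26 to 4.70 in the wild type. Epcam was read from a probe set of a kind prone to cross-hybridization, at 7.24 to 7.84 over all clones. Of 3 mast cell and lymphocyte markers 0 passed (limma; 0 at an unadjusted p under 0.05; smallest p for Cd3e, with a difference of 0.13, and Cpa3, with 0.12), with list means of 4.16 to 4.22 in the knockout and 3.98 to 4.21 in the wild type. Without clone H, 1 of the 8 macrophage markers and 2 of the 5 endothelial markers passed, all higher in the knockout, where 26.1% of all genes passed. The part of other cells in the results below was not tested.

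RefSeq promoter windows (GRCm38.p6; 250 bases before to 50 after the start of transcription) were matched for 7 of the 8 measured genes, the exception being Vcam1. The 3 windows printed here belong to the genes on which the results turn: Nfkbia, which passed, and Il6 and Ptgs2, which split the knockout clones. Capitals mark matches to the kB pattern (GG, any 3 bases, TT, any base, CC) on either strand, which 15.3% of all 32851 promoter windows hold.
Nfkbia, chr12:55492598-55492897, reverse strand: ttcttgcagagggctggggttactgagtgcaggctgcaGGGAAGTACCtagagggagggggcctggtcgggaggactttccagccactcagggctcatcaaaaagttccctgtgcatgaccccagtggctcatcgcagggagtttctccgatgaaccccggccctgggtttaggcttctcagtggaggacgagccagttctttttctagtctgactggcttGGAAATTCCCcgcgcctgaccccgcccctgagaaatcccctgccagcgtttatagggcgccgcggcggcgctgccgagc
Il6, chr5:30012864-30013163, forward strand: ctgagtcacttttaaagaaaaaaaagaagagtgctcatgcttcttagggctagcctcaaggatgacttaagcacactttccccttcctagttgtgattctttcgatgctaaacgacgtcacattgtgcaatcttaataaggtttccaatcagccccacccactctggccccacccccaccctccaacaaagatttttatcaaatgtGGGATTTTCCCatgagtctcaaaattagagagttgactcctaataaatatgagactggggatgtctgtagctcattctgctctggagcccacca
Ptgs2, chr1:150099781-150100080, forward strand: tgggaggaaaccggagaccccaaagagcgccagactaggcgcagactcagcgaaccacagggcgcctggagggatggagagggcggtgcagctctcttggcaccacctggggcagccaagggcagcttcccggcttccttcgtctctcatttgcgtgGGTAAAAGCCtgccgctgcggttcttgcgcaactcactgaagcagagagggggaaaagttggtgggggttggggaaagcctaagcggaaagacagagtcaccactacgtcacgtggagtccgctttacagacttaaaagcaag
Nfkbia holds 2 matches, at -212 to -203 and at -29 to -20 from the start site. Il6 holds 2 matches that overlap each other, at -44 to -35 and -43 to -34, and Ptgs2 holds 1, at -93 to -84 on the reverse strand. Of the 7 genes with a window, 4 held a match, and Tnfaip3 is the other. An AP-1 pattern, TGANTCA, was found in the windows of Il6 and Tnfaip3 and is held by 7.81% of all windows; the C/EBP pattern TTNNGNAA was found in all but that of Nfkbia and is held by 40.7%. These matches are letters in a window and not measured binding.

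Of the 8 measured genes, Nfkbia rose in knockout clones, 0 fell (limma; 0 at an unadjusted p under 0.05) and 7 did not pass. That is 12.5% of the genes, where 19% of all genes passed (9.04% higher and 10% lower). The median difference over the 8 genes was 0.11, against 0.043 over all genes. Knockout and wild type readings were fully separated in 2 of the 8, Nfkbia and Lcn2, where 38.9% of all genes were without overlap. Without knockout clone H, 3 of the 8 passed, Nfkbia higher and Il6 and Ptgs2 lower, where 26.1% of all genes passed (12.7% higher and 13.4% lower).

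**Figure D1:**
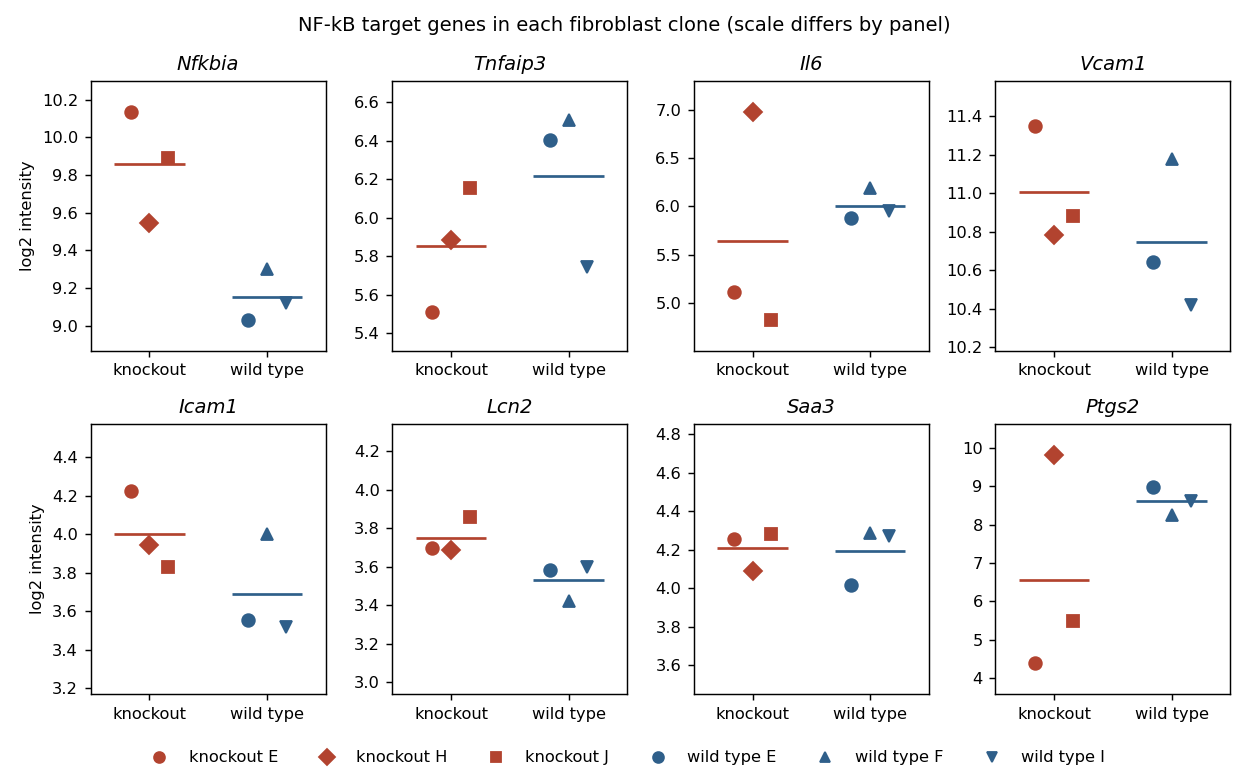
Log2 intensity (vertical axis, scale differs by panel) of the 8 measured genes in the 3 knockout clones (left, red) and the 3 wild type clones (right, blue); each point is 1 clone on 1 array and the line is the group mean. Nfkbia separates the genotypes, at 9.55 to 10.13 in the knockout and 9.03 to 9.30 in the wild type, while Il6 and Ptgs2 show knockout clone H above all wild type clones and knockout clones E and J below them.

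Nfkbia encodes IkB-alpha, the inhibitor that NF-kB itself induces and that ends its activity. Its leading probe set read 10.13 (E), 9.55 (H) and 9.89 (J) in knockout clones, against 9.03 (E), 9.30 (F) and 9.12 (I) in wild type clones. Every knockout clone lay above every wild type clone, clone E farthest from the wild type mean (1.98-fold) and clone H nearest to it (1.32-fold). The mean was 9.86 ± 0.294 in knockout and 9.15 ± 0.137 in wild type clones (SD, n = 3 each), a rise of 0.71 (SE 0.17, limma adjusted p = 0.0340) or 1.63-fold. All 5 probe sets of the gene gave the same picture: each was higher in the knockout without overlap and passed when every probe set was tested on its own, with differences of 0.46 to 0.71 (adjusted p 0.0205 to 0.0409). Without clone H the difference was 0.86 (limma adjusted p = 0.00639). The call was lost on leaving out knockout clone E (0.57) or J (0.69), or wild type clone E (0.65), F (0.78) or I (0.69), with adjusted p 0.0665 to 0.117.

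Tnfaip3 encodes A20, an enzyme that edits ubiquitin chains on signalling proteins upstream of the IkB kinase. It read 5.51 (E), 5.89 (H) and 6.16 (J) in knockout clones, against 6.41 (E), 6.51 (F) and 5.75 (I) in wild type clones. The groups overlapped, since wild type clone I read lower than knockout clones H and J. The difference was -0.37 (SE 0.25, limma adjusted p = 0.369; 95% interval -0.98 to 0.24), and the other probe set of the gene gave -0.064. The 2 feedback inhibitors thus lay on different sides of 0; the difference between them was not tested.

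Il6 encodes interleukin-6, a cytokine that signals through the gp130 receptor chain to STAT3. It was read by 1 probe set, at 5.12 (E), 6.98 (H) and 4.83 (J) in knockout clones, against 5.88 (E), 6.19 (F) and 5.95 (I) in wild type clones. Clone H lay 1.96-fold above the wild type mean, and clones E and J lay 1.85-fold and 2.26-fold below it. The knockout clones spanned 2.15 on the log2 scale and the wild type clones 0.312. Over all clones the difference was -0.37 (SE 0.54, limma adjusted p = 0.692; 95% interval -1.67 to 0.94). Without clone H it was -1.03 (SE 0.15, limma adjusted p = 0.00456), which passed, and without knockout clone J it was 0.041.

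Receptor chains of the same cytokine did not pass. Il6ra, the interleukin-6 receptor, differed by -0.089 (limma adjusted p = 0.750). Il6st, the gp130 chain, read 10.63 (E), 12.03 (H) and 10.75 (J) in knockout clones, against 10.10 (E), 10.20 (F) and 10.93 (I) in wild type clones. The difference of Il6st was 0.73 (limma adjusted p = 0.285), and 0.28 without clone H (limma adjusted p = 0.490). Here too clone H held the highest reading. These genes were singled out as partners of Il6 after their values were seen, and so were the other genes of that list named below without a call.

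Vcam1 and Icam1 encode cell surface proteins of the immunoglobulin superfamily that leukocyte integrins bind. Vcam1 read 11.35 (E), 10.79 (H) and 10.88 (J) in knockout clones, against 10.64 (E), 11.18 (F) and 10.42 (I) in wild type clones. The groups overlapped through wild type clone F, and the difference was 0.26 (SE 0.24, limma adjusted p = 0.510; 95% interval -0.32 to 0.83). Its other probe sets gave -0.042 and 0.28. Icam1 read 4.23 (E), 3.94 (H) and 3.83 (J) in knockout clones, against 3.55 (E), 4.0 (F) and 3.52 (I) in wild type clones. Again only wild type clone F reached into the knockout range, and the difference was 0.31 (SE 0.18, limma adjusted p = 0.281; 95% interval -0.11 to 0.73). Neither gene passed without clone H (0.37, limma adjusted p = 0.353, and 0.34, adjusted p = 0.281).

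Lcn2 encodes lipocalin-2, which binds bacterial siderophores, and Saa3 an acute-phase serum amyloid A protein made outside the liver in mice. Lcn2 read 3.70 (E), 3.69 (H) and 3.86 (J) in knockout clones, against 3.58 (E), 3.42 (F) and 3.60 (I) in wild type clones. The groups did not overlap, yet the gap was small and the difference of 0.21 did not pass (SE 0.11, limma adjusted p = 0.216; 95% interval -0.040 to 0.47). Saa3 read 4.25 (E), 4.09 (H) and 4.28 (J) in knockout clones, against 4.02 (E), 4.29 (F) and 4.27 (I) in wild type clones. All 3 knockout readings lay inside the wild type range, with a difference of 0.016 (SE 0.12, limma adjusted p = 0.944; 95% interval -0.27 to 0.30). The mean readings of Lcn2, Icam1 and Saa3 lay at percentiles 22.9, 26.5 and 31.9 of those of all genes, low on the scale, and the values carry no detection call, so whether these transcripts were present was not tested.

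**Figure D2:**
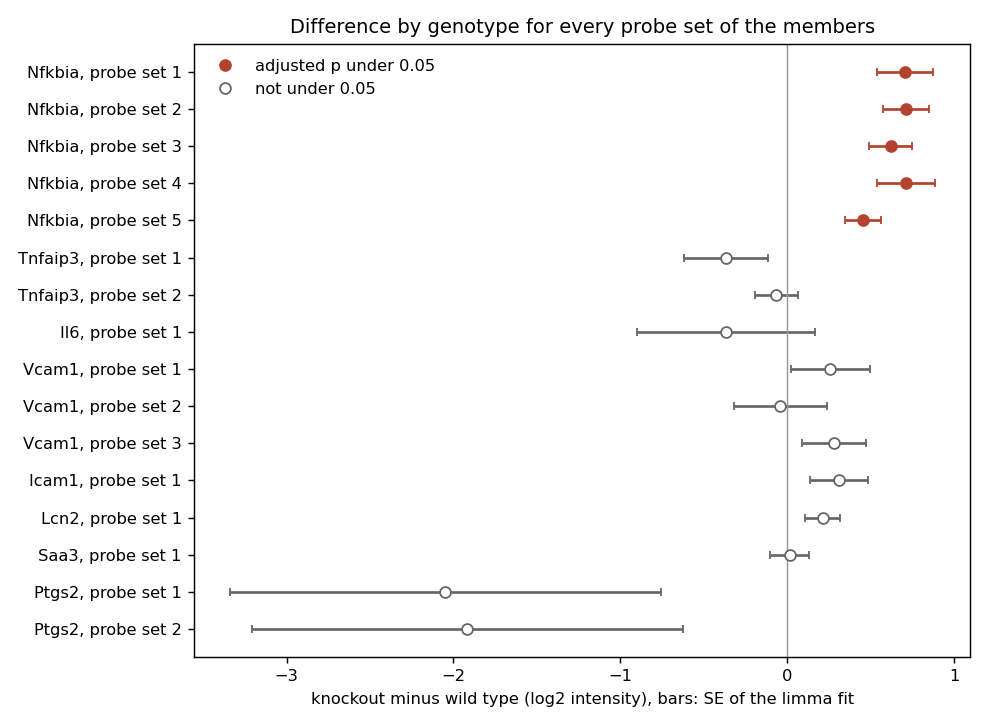
Difference by genotype (knockout minus wild type, log2 intensity, horizontal axis) for each of the 16 probe sets of the 8 genes, in order of mean level within a gene; bars are the SE of the limma fit and filled points passed. The 5 probe sets of Nfkbia lie between 0.46 and 0.71, and the 2 of Ptgs2 lie at -2.05 and -1.92 with bars far wider than those of any other gene.

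Ptgs2 encodes cyclooxygenase-2, the inducible enzyme that turns arachidonic acid into the prostaglandin precursor. It read 4.40 (E), 9.81 (H) and 5.49 (J) in knockout clones, against 8.98 (E), 8.25 (F) and 8.62 (I) in wild type clones. Clone E lay 18.6-fold and clone J 8.70-fold below the wild type mean, while clone H lay 2.29-fold above it. These folds are ratios of readings: that of clone E lay below the median of its array (4.54), and no detection call is given. The other probe set of the gene ordered the clones alike, at 3.88 (E), 9.33 (H) and 5.14 (J) in knockout clones, against 8.42 (E), 7.66 (F) and 8.02 (I) in wild type clones. The knockout clones spanned 5.41 on the log2 scale, against 0.722 for the wild type clones. The difference of -2.05 did not pass (SE 1.31, limma adjusted p = 0.335; 95% interval -5.20 to 1.11). Without clone H it was -3.67, or 12.7-fold (SE 0.35, limma adjusted p = 0.00105; 95% interval -4.52 to -2.82). With array weights it was -3.03 (adjusted p = 0.0490), and without knockout clone E it was -0.96.

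Other genes of prostaglandin synthesis and signalling were read as partners, and those described first were picked for their clone pattern after the values were seen. Pla2g4a, the cytosolic phospholipase that releases arachidonic acid, read 6.74 (E), 9.62 (H) and 6.39 (J) in knockout clones, against 8.74 (E), 8.75 (F) and 8.52 (I) in wild type clones. It did not pass (-1.08, limma adjusted p = 0.409), and differed by -2.10 without clone H. Ptgis, the prostacyclin synthase, read 5.42 (E), 9.72 (H) and 5.23 (J) in knockout clones, against 8.05 (E), 5.80 (F) and 8.28 (I) in wild type clones. Its difference was -0.59 (limma adjusted p = 0.80), and -2.05 without clone H. Both had clone H above and clones E and J below all wild type clones. They were picked for this pattern, so fits without clone H are no test of them. Ptges2, another prostaglandin E synthase, and Ptgds, the prostaglandin D synthase, did not pass (0.069 and 0.034, limma adjusted p = 0.671 and 0.859). Ptges, the inducible prostaglandin E synthase, rose in all 3 knockout clones, which read 8.58 (E), 8.66 (H) and 8.55 (J), against 7.81 (E), 8.33 (F) and 7.77 (I) in wild type clones (0.63, SE 0.17, limma adjusted p = 0.0456). That call was lost without knockout clone E, H or J or wild type clone E or I (adjusted p 0.0651 to 0.144), after centring of arrays (0.0665) and with its probe sets averaged (0.16). Ptger4, a receptor for prostaglandin E2, fell by 1.95 (SE 0.32, limma adjusted p = 0.0104), to 6.50 (E), 7.27 (H) and 6.66 (J) in knockout clones, against 8.92 (E), 9.20 (F) and 8.15 (I) in wild type clones, and kept its call whichever clone was left out.

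The pattern of Il6 and Ptgs2, with knockout clone H above and clones E and J below all 3 wild type clones, was held by 2 of the 8 genes and by 2.29% of all genes. This pattern was defined after the values were seen and is given without a test. Of 94 measured genes in the pathway lists below, 6 held it. Besides Pla2g4a and Ptgis they were Rela, Bcl3, Osmr and Bcl6. Rela, the p65 subunit of NF-kB, read 9.52 (E), 10.22 (H) and 9.38 (J) in knockout clones, against 9.80 (E), 9.78 (F) and 9.82 (I) in wild type clones. Bcl3, an atypical IkB protein that acts in the nucleus, read 5.91 (E), 6.91 (H) and 5.76 (J) in knockout clones, against 6.15 (E), 6.45 (F) and 6.56 (I) in wild type clones. Osmr, a receptor chain that pairs with gp130, read 9.23 (E), 10.12 (H) and 8.88 (J) in knockout clones, against 9.36 (E), 9.31 (F) and 9.43 (I) in wild type clones. Bcl6, a transcriptional repressor, read 4.44 (E), 7.05 (H) and 5.33 (J) in knockout clones, against 6.40 (E), 6.44 (F) and 6.95 (I) in wild type clones. Bcl3 and Bcl6 did not pass (-0.20 and -0.99, limma adjusted p = 0.715 and 0.327), and differed by -0.55 and -1.71 without clone H. The opposite pattern, clone H below and clones E and J above, was held by Lifr alone among these lists and by 2.61% of all genes. Lifr, a receptor chain for leukemia inhibitory factor, differed by 0.28 (limma adjusted p = 0.664), and by 0.73 without clone H. Genes picked by either pattern have clones E and J beyond all wild type clones, so fits without clone H are no test of them.

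**Figure D3:**
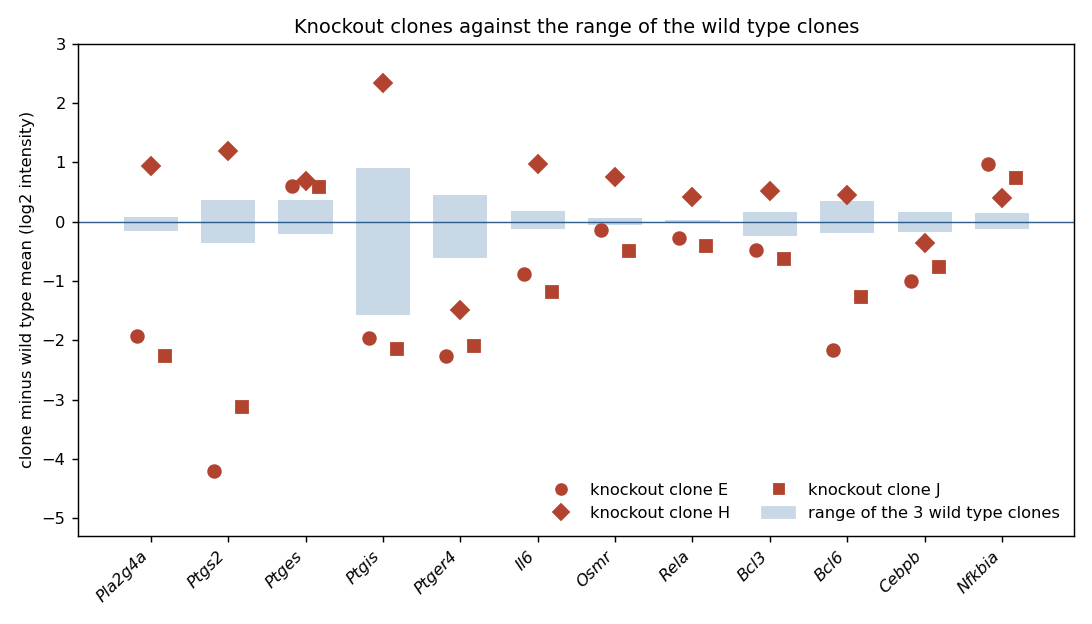
Log2 intensity of each knockout clone minus the wild type mean (vertical axis) for 12 genes of prostaglandin synthesis, interleukin-6 signalling and NF-kB. The bars span the 3 wild type clones. The genes were picked with their values known. They include every gene with clone H above and clones E and J below all wild type clones: 2 of the 8 measured genes and 6 of the 94 list genes. Clone H (diamonds) lies above the bar and clones E and J below it in Pla2g4a, Ptgs2, Ptgis, Il6, Osmr, Rela, Bcl3 and Bcl6, whereas the 3 clones lie on the same side in Ptges, Ptger4, Cebpb and Nfkbia.

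The machinery of the pathway was read from 6 lists, with 94 distinct measured genes, of which 9 rose, 13 fell and 72 did not pass (23.4% passed; median difference -0.047). Of all genes 19% passed, 9.04% higher and 10% lower, with a median of 0.043, so the share over the lists was near that over all genes, and the counts of single lists below stand beside the same background. The calls of 6 of these 22 genes, Ly96, Traf2, Ptx3, Cebpa, Slc22a17 and Ptger4, were kept in all 6 fits that leave out a clone. Of 6 subunits of NF-kB and the IkB kinase, 2 fell and 0 rose (limma; 1 higher at an unadjusted p under 0.05; median -0.020). Rel, the c-Rel subunit, fell by 1.04 (SE 0.22, limma adjusted p = 0.0235), with low readings in both genotypes (knockout 3.16 to 3.65, wild type 3.97 to 4.67). Ikbkb, the catalytic IKK-beta subunit, fell by 0.62 (SE 0.13, limma adjusted p = 0.0209); averaging its probe sets gave -0.22 (adjusted p = 0.119). The call of Rel was lost without knockout clone E or J or wild type clone E or I (adjusted p 0.0711 to 0.0896), and that of Ikbkb without knockout clone E or J or wild type clone I (0.0518 to 0.0759).

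Of 10 further inhibitors, 2 rose, 1 fell and 7 did not pass (median -0.0085). Tnip1 and Tax1bp1, which encode partners of A20, rose by 0.74 (SE 0.14, limma adjusted p = 0.0149) and 0.76 (SE 0.15, limma adjusted p = 0.0194); averaging the probe sets of Tax1bp1 gave 0.30 (adjusted p = 0.134). Otud7b, a deubiquitinase also called Cezanne, fell by 0.58 (SE 0.12, limma adjusted p = 0.0221). Calls were lost without knockout clone E or J or wild type clone E for Tnip1 (adjusted p 0.0519 to 0.0580), without these or wild type clone I for Tax1bp1 (0.0622 to 0.0734), and without knockout clone E or J or wild type clone F or I for Otud7b (0.0522 to 0.0667).

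Of 21 receptors and adaptors upstream, 1 rose, 5 fell and 15 did not pass (median -0.15). Tlr2, a receptor for bacterial lipoproteins, rose by 1.95 (SE 0.48, limma adjusted p = 0.0366; without clone H 2.54), with 8.03 (E), 6.32 (H) and 8.15 (J) in knockout clones, against 5.47 (E), 5.79 (F) and 5.38 (I) in wild type clones. Ly96, which encodes the MD-2 partner of Tlr4, fell by 0.92 (SE 0.15, limma adjusted p = 0.00925). The adaptor Traf2 fell by 0.62 (SE 0.11, limma adjusted p = 0.0113), and Tnfrsf1b, a receptor for tumour necrosis factor, by 0.82 (SE 0.16, limma adjusted p = 0.0162); averaging the probe sets of Tnfrsf1b gave -1.53. The other falls, named after their values were seen, were those of Irak2 (-1.87) and the kinase gene Map3k7 (-0.48). Once probe sets prone to cross-hybridization were dropped, Map3k7 differed by -0.14 (limma adjusted p = 0.605). The call of Map3k7 was also lost with another prior, another quantile normalization or averaged probe sets (adjusted p 0.0505 to 0.115). The calls of Tlr2, Irak2 and Map3k7 were lost on leaving out any clone but knockout H (adjusted p 0.0742 to 0.125), and that of Tnfrsf1b without knockout clone J or wild type clone E or I (0.0502 to 0.0577).

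Of 21 further targets of NF-kB, 2 rose, 1 fell and 18 did not pass (median 0.037). Ptx3, a secreted pentraxin of innate defence, rose most, by 2.23 or 4.70-fold (SE 0.20, limma adjusted p = 0.00208), with 11.40 (E), 12.07 (H) and 11.63 (J) in knockout clones, against 9.25 (E), 9.47 (F) and 9.68 (I) in wild type clones. Gadd45b, a stress-response gene, rose by 0.997 (SE 0.25, limma adjusted p = 0.0366), and Ccnd1, the cyclin D1 gene, fell by 1.70 (limma adjusted p = 0.0177). The call of Gadd45b was lost without knockout clone J or any wild type clone (adjusted p 0.0971 to 0.115) and with its probe sets averaged (0.0767), and that of Ccnd1 without wild type clone E or F (0.0605 and 0.0731). Tnf and Il1b, the genes of classical inducers of the pathway, did not pass: Tnf differed by -0.13 and Il1b by 0.27 (limma adjusted p = 0.501 and 0.133), with Il1b at 4.05 to 4.19 in the knockout and 3.71 to 3.95 in the wild type; they were singled out after their values were seen.

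Of 13 genes of C/EBP factors, STAT3 and interleukin-6 family signalling, 2 rose, 2 fell and 9 did not pass (median 0.049). C/EBP factors act beside NF-kB on Il6, Lcn2 and Saa3. Cebpa rose by 4.60 (SE 0.59, limma adjusted p = 0.00514; without clone H 5.32), with 10.13 (E), 7.67 (H) and 9.49 (J) in knockout clones, against 4.50 (E), 4.56 (F) and 4.42 (I) in wild type clones. The wild type readings lay close to the medians of their arrays (4.44 to 4.46), with no detection call, so the difference gives no exact fold. Cebpb fell by 0.71 (SE 0.18, limma adjusted p = 0.0430), with 9.62 (E), 10.25 (H) and 9.86 (J) in knockout clones, against 10.45 (E), 10.63 (F) and 10.78 (I) in wild type clones. Pim1, a kinase gene induced by STAT3, fell by 1.98 (SE 0.45, limma adjusted p = 0.0279), and Jak2, a kinase of cytokine receptors, rose by 0.58 (SE 0.13, limma adjusted p = 0.0303). The calls of Cebpb, Pim1 and Jak2 were lost on leaving out any clone but knockout H (adjusted p 0.0507 to 0.128), that of Pim1 also when its probe sets were averaged (-1.04, adjusted p = 0.0714), and that of Cebpb after another quantile normalization (0.0523).

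Of 27 partners of the 10 genes, 2 rose, 2 fell and 23 did not pass (median -0.11). Besides Ptges and Ptger4, Slc22a17, described as a receptor for lipocalin-2, rose by 0.92 (SE 0.14, limma adjusted p = 0.00851), and Itgb2, the beta chain of leukocyte integrins that bind Icam1, fell by 0.96 (SE 0.22, limma adjusted p = 0.0281). The call of Itgb2 was lost without knockout clone E or J or wild type clone F or I (adjusted p 0.0727 to 0.0967), and its readings were low in both genotypes (knockout 3.25 to 3.50, wild type 3.90 to 4.71). The paralogs Saa1 and Saa2 did not pass (-0.027 and -0.16), nor did Il33, the ligand of the Il1rl1 receptor (-0.52, limma adjusted p = 0.184). The mean readings of Saa1, Saa2 and Il33 lay low, at percentiles 19.3, 12.6 and 18.3 of those of all genes. Whether these transcripts were present was not tested.

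**Figure D4:**
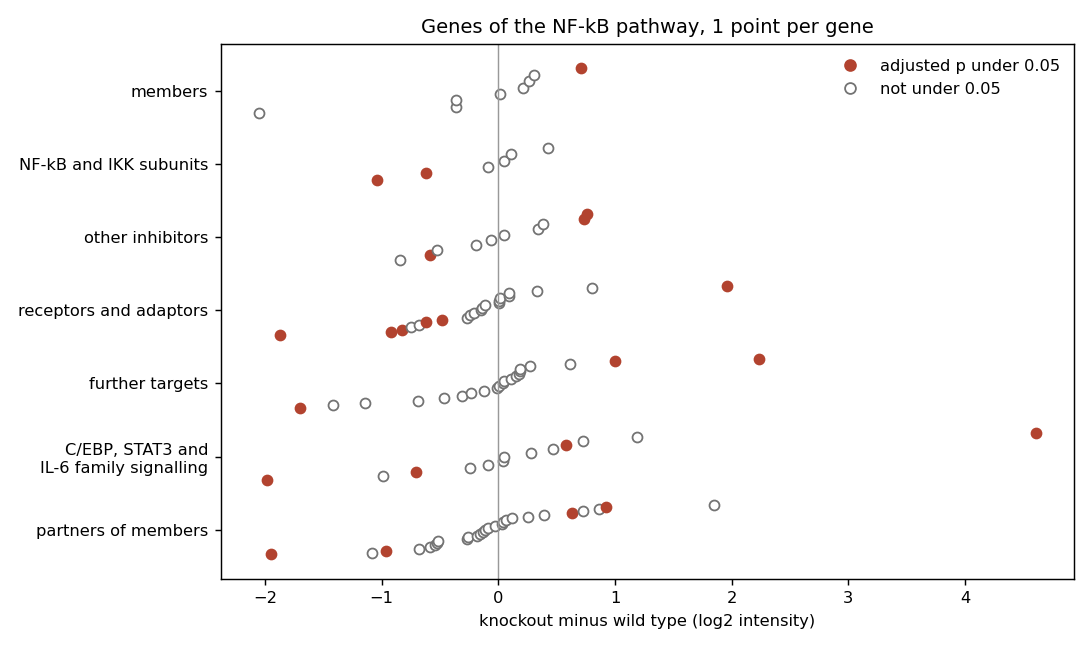
Difference by genotype (knockout minus wild type, log2 intensity, horizontal axis) for the 8 measured genes (top row) and the genes of the 6 pathway lists. Each row has 1 point per gene, spread vertically for legibility, and filled points passed. Nfkb2, Il1rap, Il6ra and Il6st belong to more than 1 list and are drawn in each. Each list holds genes on both sides of 0, and the farthest point is Cebpa at 4.60.

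Each gene's profile over the 6 clones, centred on its own mean, was set against those of all other genes with at least a median level, by the root mean square (RMS) difference in log2 units; no p is given. Nearest to Nfkbia, whose own RMS deviation was 0.399, were Kif3a, a kinesin motor subunit (0.0384), and Dolk, dolichol kinase (0.0619). Nearest to Il6 (0.704) were Ncam1, a neural cell adhesion molecule (0.188), and Pdzrn3, a ubiquitin ligase with PDZ domains (0.210). Nearest to Ptgs2 (1.95) were Cd24a, a membrane-anchored glycoprotein (0.431), and Ccn2, the connective tissue growth factor gene (0.442). Ccn2 read 8.20 (E), 12.23 (H) and 9.16 (J) in knockout clones, against 12.45 (E), 11.54 (F) and 11.93 (I) in wild type clones. Clones E and J lay below all wild type clones in Ccn2, and clone H lay within the wild type range. The nearest profiles were Ccdc9 and Nek7 for Tnfaip3 (0.128 and 0.146), Oip5os1 and Nme7 for Vcam1 (0.0890 and 0.0938), and Dcpp3 and Zbed6 for Icam1 (0.0503 and 0.0609). For Lcn2 they were Nosip and Rbck1 (0.0284 and 0.0357) and for Saa3 Zfp655 and Cbfa2t2 (0.0329 and 0.0349), whose own deviations of 0.134 and 0.106 were small.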

How the data were processed

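Biotin-labelled RNA of 6 clones was measured on Affymetrix arrays, 1 per clone, with 45101 probe sets each. The deposited values are log2 intensities made by the authors with RMA, per the submitters' processing notes; its version and settings are unknown here. The deposited values of wild type clone E have 9 decimals and those of the other clones 3. Whether that array was processed apart from the others is not stated. Precision is limited by the number of arrays, with 4 residual degrees of freedom.

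Sample titles gave the groups. After removal of 64 control probe sets, 34945 probe sets with 1 symbol gave 18193 genes, each represented by whichever of its probe sets averaged highest. Of these probe sets 34741 were found by gene ID in RefSeq (GRCm38.p6) and 0 symbols changed. Genotypes were compared by limma (version 3.58.1, under R 4.3.3) with genotype as the one term, and Benjamini-Hochberg adjustment at 0.05. Another fit tested every probe set on its own. The genes and lists were chosen with earlier results of these data known. Of 103 genes in the 6 pathway lists, 94 were measured. Named genes were the members, per list up to 4 passing genes with the smallest p (the 2 smallest where under 2 passed), Fhl2 and the 2 nearest profiles of each member; other genes were named after their values were seen. Motifs were searched in RefSeq promoter windows. The fit was tested on simulated data. Alternatives were other priors, normalization, centring, filters, probe set rules, array weights, a 2-fold threshold and each clone left out. Plots used matplotlib 3.10.9 and Python 3.11.15.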

Additional observations from a re-analysis of the deposited data

How the results depend on the processing

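The number of the 8 measured genes that passed (1) was the same under 7 alternatives, of which the filter at the median level tested 4 of the genes and the removal of probe sets prone to cross-hybridization tested 6. It was 2 with array weights, 0 when a 2-fold difference was also required (limma; Nfkbia, the 1 gene with an unadjusted p under 0.05, differed by 1.63-fold) and between 0 and 3 when a clone was left out. It was 0 without knockout clone E or J or any wild type clone (limma; 1 or 2 at an unadjusted p under 0.05), and 3 without knockout clone H. The number of all genes that passed (3464) was 1661 to 4750 with a clone left out, 1495 with a 2-fold threshold and 6280 when every probe set was tested. Of the genes in the pathway lists 22 passed, with 9 to 29 when a clone was left out and 8 with a 2-fold threshold. Saa3 (0.016) changed sign after another quantile normalization (-0.058), after centring of arrays (-0.062) and in fits without a clone (-0.072 to 0.075), and passed in none of them. Il6 (-0.37) ranged over -1.03 to 0.041 in those fits. Nfkbia stayed higher in the knockout under all 13 other settings that refit the genes (0.57 to 0.86), and 8 of them kept its call. No paired analysis was possible because the genotypes share the clone letter E alone. Low readings of Lcn2, Icam1 and Saa3 limit what their differences can show.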

Other observations

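Further pathway genes were singled out after their values were seen, as genes that passed without knockout clone H but not with all 6 clones. Their calls without clone H are thus no test of them. In that fit 26.1% of all genes and 30.9% of the measured genes of the pathway lists passed. Cd44, a hyaluronan receptor, read 8.55 (E), 10.09 (H) and 8.66 (J) in knockout clones, against 10.61 (E), 10.36 (F) and 10.57 (I) in wild type clones. Its difference was -1.41 (limma adjusted p = 0.0561), and -1.91 without clone H (adjusted p = 3.50e-04). Myd88, the adaptor of Toll-like and interleukin-1 receptors, differed by -0.68 (limma adjusted p = 0.133), and by -0.98 without clone H (adjusted p = 0.00453). Itgb1, the beta chain of the integrin that binds Vcam1, differed by -0.54 (limma adjusted p = 0.154), and by -0.78 without clone H (adjusted p = 0.00986). Socs3, a feedback inhibitor of interleukin-6 signalling, differed by 1.19 (limma adjusted p = 0.0573), and by 1.33 without clone H (adjusted p = 0.0409). It read 8.36 (E), 8.54 (H) and 9.59 (J) in knockout clones, against 7.29 (E), 7.81 (F) and 7.82 (I) in wild type clones.

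Cd55, which protects cells from complement, read 7.10 (E), 9.22 (H) and 7.44 (J) in knockout clones, against 6.18 (E), 6.71 (F) and 5.34 (I) in wild type clones. The groups did not overlap, but the difference of 1.85 did not pass (SE 0.61, limma adjusted p = 0.0854), and was 1.20 without clone H (adjusted p = 0.0634).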
